A study of Arabidopsis thaliana with 48 samples.

Results

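Transcripts of 6 genes of leaf volatile synthesis were followed in *Arabidopsis thaliana*: CYP82G1 (AT3G25180), TPS04 (AT1G61120), TPS10 (AT2G24210), TPS03 (AT4G16740), TPS02 (AT4G16730) and JRG21 (AT3G55970). They are 6 of 32833 genes in the deposited table and were picked by their identifiers, with their rise in Col systemic leaves at 8 and 30 min already known, so values of that group and any systemic genotype comparison that uses it are given as description. Leaves of 4-week-old plants grown in 10 h of light and 14 h of dark were sampled from myb30, a knockout of the gene of the R2R3-MYB transcription factor MYB30, and from the wild type Col-0 (Col), 24 libraries each. High light was given to local leaves for 0, 2, 8 or 30 min, and systemic leaves are other leaves that were not lit. There were 3 libraries in every combination of genotype, leaf and time, 16 groups in all, and a library came from a pool of 20 plants. The 0 min groups are the untreated state of each genotype and leaf, and the allele of the mutant is not given in the sources used here.

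Plants release small terpenes from leaves that are wounded, eaten or treated with jasmonate. TPS04, a geranyllinalool synthase, and CYP82G1, the cytochrome P450 that shortens its product to the homoterpene TMTT, act one after the other, while TPS10 makes monoterpenes and TPS03 makes the sesquiterpene alpha-farnesene. TPS02 is the tandem neighbour of TPS03 and gives no functional enzyme in the Col background. JRG21 is no terpene enzyme: it is an oxygenase dependent on 2-oxoglutarate and Fe(II), of a family that inactivates jasmonate, and the name of the group does not cover it.

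TPS02 and TPS03 lie on chromosome 4 in the same orientation, at 4:9402898-9406136 and 4:9407611-9411140 on the plus strand of TAIR10.1, 1474 bases apart. A stretch of the first coding exon is shown because the difference for which TPS02 is known lies there. The 2 genes are compared with each other and not with a working TPS02, so the stretch does not itself show that difference. Capitals mark an AT-rich segment of 10 bases in TPS02 and of 8 bases in TPS03, where a C interrupts it. The stretch of TPS02 is 2 bases longer:
TPS02, chr4:9403134-9403163, plus strand: tctcctctcgctcgagaATATATATATgtg
TPS03, chr4:9407975-9408002, plus strand: tctcctctcgctcggtaATACATATgtg

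No window of 25 bases of exon sequence was shared between TPS02 and TPS03, so their reads could be told apart. TPS10 shared 8 of its 1848 windows of 25 bases with another gene of its family and none of 50 bases. No annotated gene overlapped any of the 6, but AT1G61130 ends 16 bases from the end of TPS04 on the other strand, and whether reads were counted by strand is not given in the sources used here.

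The 250 bases before the gene start are printed for the 4 genes that rose in a tested comparison. JRG21 passed in none and is not printed, although it moved with these genes between libraries. The sequences are from the RefSeq annotation of TAIR10.1, with capitals where a searched motif occurs:
CYP82G1, chr3:9169302-9169551, minus strand: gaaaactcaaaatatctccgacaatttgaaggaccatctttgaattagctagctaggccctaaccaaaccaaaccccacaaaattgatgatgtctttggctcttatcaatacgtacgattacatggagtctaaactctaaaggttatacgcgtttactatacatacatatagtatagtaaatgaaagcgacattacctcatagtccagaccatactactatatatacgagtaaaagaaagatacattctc
TPS04, chr1:22523385-22523634, plus strand: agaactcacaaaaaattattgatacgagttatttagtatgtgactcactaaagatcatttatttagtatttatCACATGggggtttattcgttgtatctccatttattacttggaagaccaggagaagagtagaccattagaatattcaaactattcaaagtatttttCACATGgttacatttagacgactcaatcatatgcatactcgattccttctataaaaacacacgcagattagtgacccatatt
TPS10, chr2:10294036-10294285, plus strand: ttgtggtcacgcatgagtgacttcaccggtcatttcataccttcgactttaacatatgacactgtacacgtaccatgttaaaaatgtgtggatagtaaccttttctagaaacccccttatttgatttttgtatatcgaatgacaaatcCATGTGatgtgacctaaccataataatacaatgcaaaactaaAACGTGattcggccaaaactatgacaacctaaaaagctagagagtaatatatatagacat
TPS03, chr4:9407361-9407610, plus strand: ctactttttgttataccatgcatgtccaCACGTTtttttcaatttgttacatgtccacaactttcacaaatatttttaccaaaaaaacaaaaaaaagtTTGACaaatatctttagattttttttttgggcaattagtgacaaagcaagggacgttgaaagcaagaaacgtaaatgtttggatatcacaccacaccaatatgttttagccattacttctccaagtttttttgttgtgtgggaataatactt

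Both strands were searched for the G-box CACGTG, for the related sequences AACGTG and CACATG, for the W-box core TTGAC, for the GCC-box core, which reads GCCGCC, and for AACAAAC, a sequence of MYB factors. The sequence CACATG, which MYC factors of the jasmonate pathway can bind, occurred in TPS04 at -177 and -82 from the gene start, in TPS10 at -102 and in TPS02 at -172, and in 11.09% of 27443 promoters of the same length. AACGTG occurred in TPS10, TPS03 and JRG21 and in 7.539% of promoters, and TTGAC in TPS03 and TPS02 and in 44.93%. None of the 6 genes held the G-box, the GCC-box core or the MYB sequence, which were found in 6.486%, 1.869% and 11.22% of promoters, and CYP82G1 held no searched motif in this window.

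Levels are normalised read counts, in which 1 read is worth about 1 unit, and triplets give replicates 1, 2 and 3 in that order. Libraries held 70514715 to 89402096 reads in genes, and the chi-square per gene between libraries of a group was 15.9 to 71.3, so the spread between libraries exceeded counting error. A library listed at 0 still allows up to 3 reads. A change is given as the log2 fold change ± its standard error, fitted by limma on log2(value + 1), with p-values adjusted over 19556 genes whose mean was at least 10; on this scale changes of low genes are understated. Of the 6 genes 5 passed that minimum, and TPS02, with a mean of 4.14, did not.

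MYB30 transcripts were counted in both genotypes, with group means of 204 to 709 in myb30 and 272 to 956 in Col, and reads over the whole gene do not check the allele. In Col systemic 0 min replicate 3 and myb30 systemic 0 min replicate 3, 100% of the 8 genes that part the genotypes elsewhere lay nearer the genotype not on the label, where the other libraries reached 12.5% at most. WRKY40, an early stress factor, stood at 3317 in myb30 systemic 0 min replicate 3, 1897 in Col local 0 min replicate 3 and 496 in Col systemic 0 min replicate 1. CYP82G1 stood at 28.1, 10.7 and 4.11 in these 3 libraries, and leaving them out, or both libraries in doubt, changed no count of called genes.

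In unlit plants the 6 genes were close to silent. Across the 12 libraries of 0 min their medians were 1.46 for CYP82G1, 2.30 for TPS04, 0 for TPS10, 2.85 for TPS03, 0 for TPS02 and 1.39 for JRG21, and TPS10 was at 0 in 8 libraries. At 30 min the medians over 12 libraries were 349 for CYP82G1, 318 for TPS04, 32.1 for TPS10, 13.8 for TPS03, 2.81 for TPS02 and 81.5 for JRG21. Set in the order of their 16 group means, every group overlapped its neighbour in that order, in 15 of 15 neighbouring pairs for each gene. The highest mean stood in myb30 systemic leaves at 30 min for CYP82G1, in Col local leaves at 30 min for TPS04, in Col systemic leaves at 30 min for TPS10 and TPS02, in Col local leaves at 8 min for TPS03 and in myb30 local leaves at 8 min for JRG21.

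**Figure D1:**
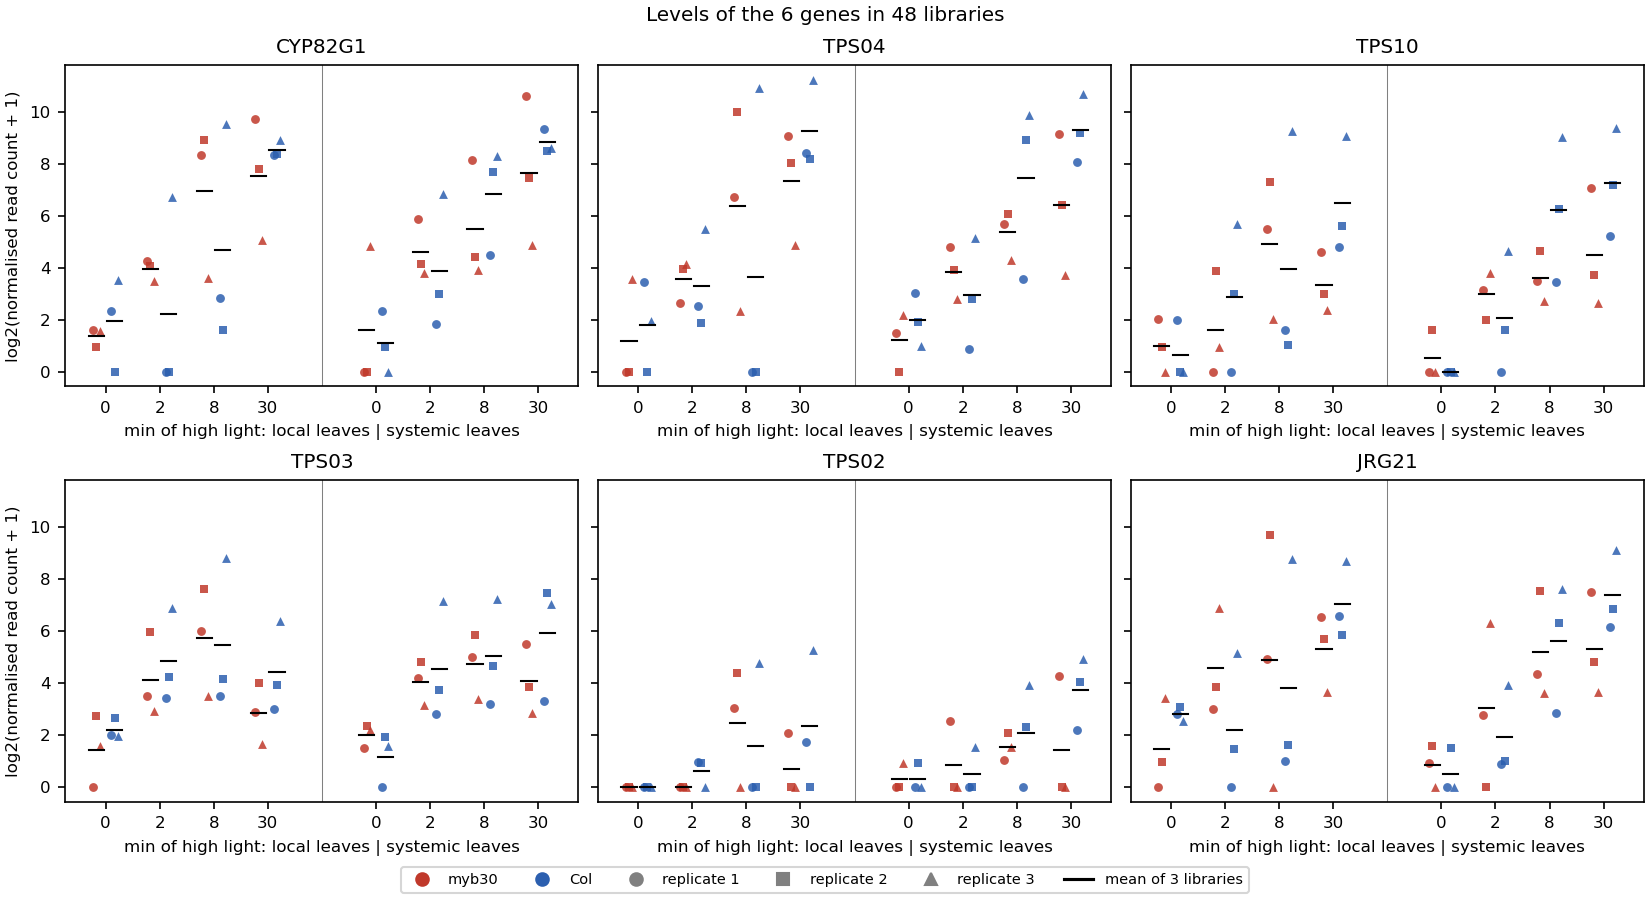
Level of each gene in every library, as log2(normalised read count + 1), against minutes of high light in local and systemic leaves. Symbols are replicates, red is myb30 and blue is Col, and bars are means of 3 libraries; all 6 genes were low at 0 min, and libraries of a group lay far apart from 2 min on.

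CYP82G1, the last enzyme of TMTT synthesis, was the gene called in all 3 tested arms at 30 min. In myb30 local leaves it stood at 2.04, 0.934 and 1.98 at 0 min, 18.3, 15.7 and 10.3 at 2 min, 325, 492 and 11.4 at 8 min and 845, 223 and 33.1 at 30 min. In myb30 systemic leaves it stood at 0, 0 and 28.1 at 0 min, 57.6, 17.0 and 12.9 at 2 min, 288, 20.7 and 14.3 at 8 min and 1570.2, 174 and 28.4 at 30 min. In local leaves of myb30 every 30 min library lay above every 0 min library. In systemic leaves the lowest 30 min library, at 28.4 (32 reads), was level with 0 min replicate 3, at 28.1 (31 reads). The genotype of that 0 min library is in doubt. The share of all genes parted in this way was not counted. Replicate 3 was the lowest of its group at 30 min in both leaves of myb30. In Col local leaves it stood at 4.03, 0 and 10.7 at 0 min, 0, 0 and 105 at 2 min, 6.18, 2.09 and 751 at 8 min and 324, 338 and 485 at 30 min. In Col systemic leaves, whose values chose the genes, it stood at 4.11, 0.925 and 0 at 0 min, 2.56, 7.10 and 115 at 2 min, 21.6, 206 and 318 at 8 min and 660.4, 359.8 and 398 at 30 min. At 8 min 1 Col local library was high and the other two were at 0 min levels, whereas at 30 min all 3 were high, with a mean of 382 ± 89.2 (SD, n = 3).

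CYP82G1 rose at 30 min in myb30 local leaves (6.16 ± 1.80, limma adjusted p = 0.0052), in myb30 systemic leaves (6.03 ± 1.80, limma adjusted p = 0.024) and in Col local leaves (6.60 ± 1.80, limma adjusted p = 0.0023). At 8 min it rose in myb30 local leaves (5.60 ± 1.80, limma adjusted p = 0.026). In Col local leaves at 8 min its change was 2.72 ± 1.80 and did not pass. The calls in myb30 rested on few libraries: without replicate 1 or replicate 2 of either systemic group the systemic change was between 4.54 and 6.13 and did not pass, and without the library in doubt it was 7.65 and passed.

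TPS04, which makes the substrate for CYP82G1, reached the highest levels of the group. Its values in myb30 local leaves were 0, 0 and 10.9 at 0 min, 5.24, 14.7 and 16.9 at 2 min, 107, 1026 and 4.14 at 8 min and 545, 266 and 28.8 at 30 min. Its values in myb30 systemic leaves were 1.83, 0 and 3.62 at 0 min, 27.4, 14.0 and 5.97 at 2 min, 50.6, 67.5 and 19.0 at 8 min and 572, 85.2 and 12.4 at 30 min. Replicate 2 was the highest at 8 min and replicate 1 at 30 min in both leaves of myb30. Its values in Col local leaves were 10.1, 0 and 2.92 at 0 min, 4.83, 2.65 and 44.3 at 2 min, 0, 0 and 1933 at 8 min and 342, 294 and 2427 at 30 min. Its values in Col systemic leaves were 7.20, 2.77 and 0.995 at 0 min, 0.854, 6.08 and 34.4 at 2 min, 10.8, 491 and 955 at 8 min and 274, 586 and 1667 at 30 min. Replicate 3 was the highest in every Col group after 0 min, and at 8 min in Col local leaves the other two libraries were at 0.

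TPS04 rose at 30 min in myb30 local leaves (6.16 ± 1.97, limma adjusted p = 0.010) and in Col local leaves (7.48 ± 1.97, limma adjusted p = 0.0017). The change in myb30 local leaves did not pass without myb30 local 30 min replicate 1, where it was 5.29. The change in myb30 systemic leaves at 30 min was 5.21 ± 1.97 and did not pass. At 8 min the changes were 5.18 ± 1.97 in myb30 local leaves and 1.83 ± 1.97 in Col local leaves, and neither passed.

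TPS10, a monoterpene synthase, was nearly absent at 0 min, with 4 reads over 3 libraries in myb30 local, 2 in myb30 systemic, 3 in Col local and 0 in Col systemic leaves. For myb30 local leaves the values were 0, 13.6 and 0.939 at 2 min, 44.0, 156 and 3.11 at 8 min and 23.8, 7.04 and 4.27 at 30 min. For myb30 systemic leaves the values were 7.81, 3.00 and 12.9 at 2 min, 10.3, 23.9 and 5.71 at 8 min and 135, 12.4 and 5.32 at 30 min. Local replicates 1 and 2 at 8 min and systemic replicate 1 at 30 min stood out among the myb30 libraries, and the values at 30 min overlapped those at 2 min in both leaves. For Col local leaves the values were 0, 7.07 and 50.5 at 2 min, 2.06, 1.05 and 611 at 8 min and 27.3, 47.8 and 542 at 30 min. For Col systemic leaves the values were 0, 2.03 and 23.9 at 2 min, 9.91, 75.3 and 523 at 8 min and 36.9, 147 and 669 at 30 min. Replicate 3 was again the highest Col library at each time.

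TPS10 rose in Col local leaves at 30 min (limma adjusted p = 0.0038). Against the 3 reads at 0 min the ratio of its normalised levels was 194.5, with an exact 95% interval of 66.2 to 946 that covers counting error alone. In myb30 local leaves its change at 30 min was 2.35 ± 1.68 and did not pass. In myb30 systemic leaves the ratio at 30 min was 74.8 against 2 reads (exact 95% interval of 20.4 to 623, counting error alone), with no call. At 30 min in Col systemic leaves the level was 293-fold the limit of 3 reads over the group at 0 min. That limit covers counting error alone, and the 30 min libraries ran from 36.9 to 669.

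TPS03, the farnesene synthase, had its highest mean at 8 min in the local leaves of both genotypes. In myb30 local leaves the means of TPS04, TPS10, TPS02 and JRG21 were likewise higher at 8 min than at 30 min, and no difference in time course between the genes was tested. The level in myb30 local leaves was 0, 5.60 and 1.98 at 0 min, 10.5, 61.9 and 6.57 at 2 min, 63.9, 199 and 10.4 at 8 min and 6.48, 15.3 and 2.13 at 30 min. The level in Col local leaves was 3.03, 5.28 and 2.92 at 0 min, 9.65, 17.7 and 119.5 at 2 min, 10.3, 16.7 and 445 at 8 min and 7.11, 14.3 and 82.5 at 30 min. In both genotypes the values at 2, 8 and 30 min overlapped. The level in myb30 systemic leaves was 1.83, 4.06 and 3.62 at 0 min, 17.6, 27.0 and 7.96 at 2 min, 31.0, 56.6 and 9.51 at 8 min and 45.1, 13.3 and 6.20 at 30 min. The level in Col systemic leaves was 0, 2.77 and 1.99 at 0 min, 5.98, 12.2 and 142 at 2 min, 8.11, 24.4 and 151 at 8 min and 9.00, 175 and 130.5 at 30 min. It was the member with the fewest libraries at 0, 2 of 48. TPS03 rose at 8 min in myb30 local leaves (4.29 ± 1.31, limma adjusted p = 0.019), and its change in Col local leaves at 8 min was 3.27 ± 1.31 (limma adjusted p = 0.061). At 30 min its changes of 1.42 ± 1.31 in myb30 local and 2.24 ± 1.31 in Col local leaves did not pass.

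TPS02 was detected at very low levels. It was at 0 in 27 of 48 libraries and highest in Col local 30 min replicate 3, at 37.4. In myb30 local leaves at 8 min it stood at 7.33, 19.8 and 0, or 9.39-fold the limit of 3 reads over the 0 min group. All libraries of that 0 min group were at 0. In Col local leaves at 30 min it stood at 2.37, 0 and 37.4, or 12.5-fold the same limit at 0 min. The limit covers counting error alone. In both groups at least 1 library was still at 0.

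JRG21 was high in single libraries and passed in none of the comparisons tested with limma. Levels in myb30 local leaves were 0, 0.934 and 9.91 at 0 min, 6.99, 13.6 and 119 at 2 min, 29.3, 837 and 0 at 8 min and 91.9, 50.5 and 11.7 at 30 min. Levels in Col local leaves were 6.05, 7.39 and 4.86 at 0 min, 0, 1.77 and 35.0 at 2 min, 1.03, 2.09 and 439 at 8 min and 94.8, 57.4 and 414 at 30 min. At 8 min the libraries of both genotypes ran from about the 0 min level to values far above it. At 30 min all 3 libraries of each genotype lay above all of its 0 min libraries. In myb30 this was by 11 reads against 10, and the share of all genes parted in this way was not counted. Its changes at 30 min were 3.83 ± 1.86 in myb30 local leaves (limma adjusted p = 0.094) and 4.24 ± 1.86 in Col local leaves (limma adjusted p = 0.054). In myb30 systemic leaves at 30 min it stood at 182, 27.5 and 11.5, 72.8-fold above the 3 reads at 0 min (exact 95% interval of 24.6 to 356, counting error alone), with no call.

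Counted over the group, 2 of the 5 tested genes rose at 30 min in myb30 local leaves, where 44.1% of all genes tested were called in either direction and 22.5% rose. In myb30 systemic leaves 1 of 5 rose at 30 min, against 11.6% called and 5.87% higher over all genes. In Col local leaves 3 of 5 rose at 30 min, against 53.7% called and 27.2% higher over all genes. At 8 min 2 of 5 rose in myb30 local leaves, against 18.7% called and 9.48% higher. None of 5 was called at 8 min in myb30 systemic leaves, where 0.88% of all genes were called, and 4 had an unadjusted p under 0.05 by limma, 1 by edgeR and 5 by DESeq2, with no adjusted call by either. None of 5 was called at 8 min in Col local leaves, where 26% of all genes were called, although edgeR called 4 and DESeq2 all 5 there, and 1 had an unadjusted limma p under 0.05. At 2 min none was called in myb30 local leaves (1.66% of all genes called), myb30 systemic leaves (0%) or Col local leaves (10.7%); unadjusted p-values under 0.05 by limma numbered 1 in myb30 local leaves and 0 in both other arms, edgeR called none in any arm, and DESeq2 called 1 in Col local leaves. In Col systemic leaves, whose values at 8 and 30 min chose the genes, no count of calls is read.

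The counts in myb30 hung on single libraries. For local leaves at 8 min, no gene was called without 0 min replicate 3, 8 min replicate 1 or 8 min replicate 2, 1 was called without 0 min replicate 1 or 0 min replicate 2, and all 5 were called without 8 min replicate 3. For systemic leaves at 30 min, no gene was called without 0 min replicate 1, 0 min replicate 2, 30 min replicate 1 or 30 min replicate 2, and 2 were called without 30 min replicate 3. For local leaves at 30 min, 1 was called without 30 min replicate 1.

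**Figure D2:**
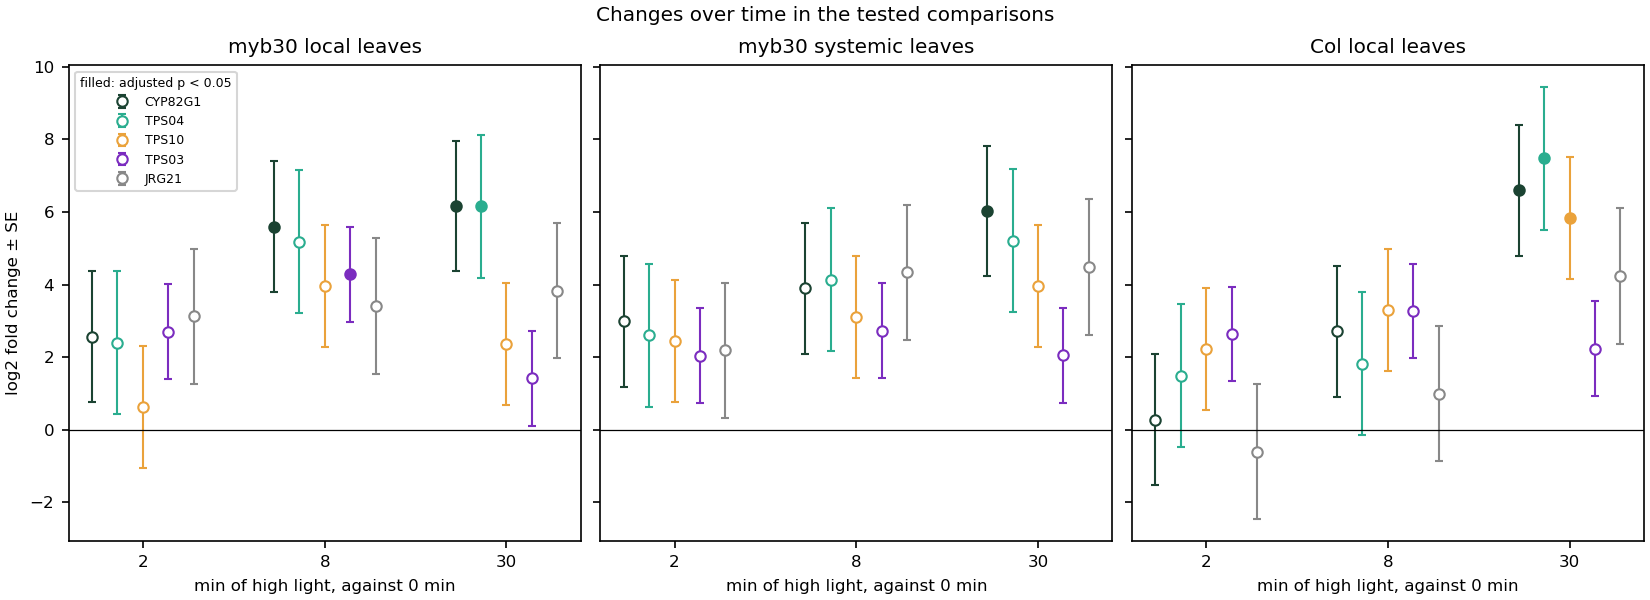
Change of the 5 tested genes at 2, 8 and 30 min against 0 min, as log2 fold change with its standard error, in myb30 local, myb30 systemic and Col local leaves. Filled points passed an adjusted p of 0.05, 2, 1 and 3 genes at 30 min in these arms and 2 at 8 min in myb30 local leaves; for TPS10 in Col local and both TPS10 and JRG21 in myb30 systemic leaves the 0 min group held 3 reads or fewer and the size depends on the added count of 1.

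The comparison of myb30 with Col in local leaves asked whether the mutant had another level of these transcripts. No gene was called at 0, 2, 8 or 30 min, where 0.0102%, 0.373%, 0.0153% and 1.42% of all genes were called. Unadjusted limma p-values under 0.05 numbered 0 at each time, and at 30 min edgeR and DESeq2 each had 1 without calling it. TPS10 at 30 min came nearest, with 23.8, 7.04 and 4.27 in myb30 against 27.3, 47.8 and 542 in Col, a difference of -3.16 ± 1.68 (95% interval of -6.46 to 0.14, limma adjusted p = 0.46). Every myb30 library was below every Col library for this gene alone, 1 of 5, and for 9.69% of all genes tested. For CYP82G1 the difference at 30 min was -1.02 ± 1.80 with a 95% interval of -4.55 to 2.51, so that changes of many-fold in either direction were not detectable with this spread. The difference in response between the genotypes, tested as an interaction with time in local leaves, passed for none of the 5 genes at 2, 8 or 30 min, where 0%, 0% and 0.276% of all genes passed, and ranged at 30 min from -3.48 ± 2.38 for TPS10 to -0.40 ± 2.64 for JRG21.

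In systemic leaves the genotypes are set side by side without a test. At 30 min CYP82G1 averaged 591 ± 851 in myb30 and 473 ± 164 in Col (SD, n = 3 each). TPS04 averaged 223 ± 304 in myb30 and 842 ± 731 in Col. TPS10 averaged 51.0 ± 73.0 in myb30 and 284 ± 338 in Col. The library ranges of the genotypes overlapped for all 3 genes.

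Local and systemic leaves of myb30 did not part either. None of the 5 genes was called at 0, 2, 8 or 30 min, where 0%, 0.0409%, 3.91% and 42% of all genes were called, none had an unadjusted limma p under 0.05, and edgeR and DESeq2 called none. At 30 min CYP82G1 averaged 367 ± 425 in local and 591 ± 851 in systemic leaves (SD, n = 3 each). The difference was -0.11 ± 1.80 with a 95% interval of -3.64 to 3.42. This fit did not pair libraries by number, although replicates 1, 2 and 3 stood at 845, 223 and 33.1 in local and 1570.2, 174 and 28.4 in systemic leaves. The interval so includes spread that same-numbered libraries shared. Over all genes tested their deviations at 30 min correlated at r of 0.4, -0.136 and 0.449. The interaction of leaf and time passed for none of the 5 genes at 2, 8 or 30 min, where 0%, 1.27% and 22.7% of all genes passed.

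Within a group the genes rose and fell together from library to library. In 7 of the 12 groups after 0 min 1 library was the highest for all 5 genes, and in 9 of 12 for at least 4 of 5. In myb30 replicate 2 led in at least 4 genes at 8 min and replicate 1 at 30 min in both leaves, while at 2 min no replicate led in more than 2 of 5. In Col replicate 3 led in all 5 genes in 5 groups and in 3 of 5 in systemic leaves at 30 min. Across the 36 libraries after 0 min, differences from the group mean correlated between the genes at Pearson r of 0.698 to 0.898 over 10 pairs, as a description of libraries that share depth and harvest. The largest contrast stood in Col local leaves at 8 min, where replicate 3 had 751 for CYP82G1, 1933 for TPS04 and 611 for TPS10, and the other two libraries had at most 6.18, 0 and 2.06.

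The same libraries were high in JAZ10, a jasmonate-induced repressor of jasmonate signalling. JAZ10 and JAZ7 are among the 3 genes most like CYP82G1 over all 48 libraries. Their match within groups is drawn from the same values and is no separate evidence. JAZ10 stood at 708, 749.7 and 44.5 in myb30 local leaves and at 37.1, 17.8 and 1663 in Col local leaves at 8 min, so that the low libraries of CYP82G1 were low here too. Differences of JAZ10 from its group mean correlated with those of the 5 genes at r of 0.712 to 0.960 across the 36 libraries. For JAZ7 the range was 0.491 to 0.857, for JAZ1 0.423 to 0.800 and for AOC3, an enzyme of jasmonate synthesis, 0.276 to 0.770. WRKY40 had a range of -0.104 to 0.283, below those of JAZ10, JAZ7 and JAZ1, while its upper end met the lower end of AOC3. In Col local leaves at 8 min WRKY40 stood at 4205, 2844 and 2402. MYB30 itself gave -0.137 to 0.159. Whether the spread has to do with the state of the pooled plants, their handling or the time of harvest was not tested.

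**Figure D3:**
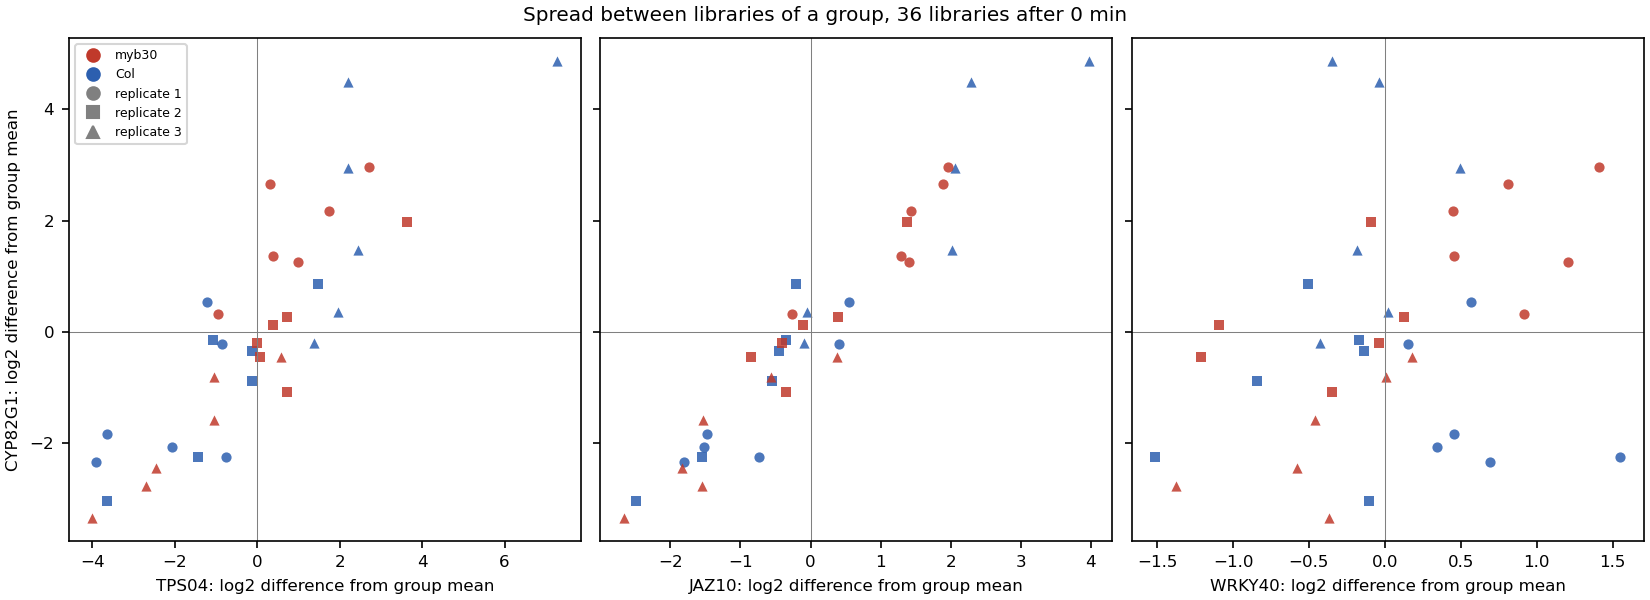
Difference of each library from its group mean for CYP82G1, against that for TPS04, JAZ10 and WRKY40, in log2 units, for 36 libraries after 0 min. Symbols are replicates and colours genotypes; points follow a rising line against TPS04 and JAZ10 and scatter against WRKY40.

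Over all 48 libraries the 3 genes whose log2 levels were most like CYP82G1 were JAZ10 (Pearson r = 0.944, Spearman rho = 0.949), the protein kinase gene MAPKKK21 (r = 0.943) and JAZ7 (r = 0.934). For TPS04 they were AT4G11911 (r = 0.931), AT2G38240 (r = 0.926), another oxygenase of the kind of JRG21, and the indole glucosinolate methyltransferase gene IGMT5 (r = 0.925). For TPS10 they were IGMT5 (r = 0.939), LOX2 (r = 0.925), a plastid lipoxygenase of jasmonate synthesis, and AT4G11320 (r = 0.911). For JRG21 they were AT1G54020 (r = 0.904) and the vegetative storage protein genes VSP2 (r = 0.896) and VSP1 (r = 0.888). For TPS03 they were OEP16-1 (r = 0.872), GSH2 (r = 0.867) and FRA3 (r = 0.857). IGMT5, near TPS04 and TPS10, was the only gene that recurred between members.

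Per length of exon, which allows levels of different genes to be compared, ratios were taken in the libraries that held at least 20 reads of both genes. TPS03 over CYP82G1 was 0.892 and 0.974 in 2 libraries at 2 min, replicate 3 of Col local and of Col systemic leaves, had a median of 0.235 in 6 libraries at 8 min and of 0.195 in 4 libraries at 30 min. TPS03 over TPS04 was 3.11 and 4.77 in the same 2 libraries at 2 min, against medians of 0.266 in 7 libraries at 8 min and 0.0905 in 4 at 30 min. Libraries with fewer reads gave no ratio, among them Col local replicates 1 and 2 at 8 min, which had 10.3 and 16.7 for TPS03, 6.18 and 2.09 for CYP82G1 and 0 for TPS04, and myb30 systemic replicate 1 at 2 min, which had 17.6 for TPS03 and 57.6 for CYP82G1. No course over time is read from these ratios. TPS04 over CYP82G1 at 30 min had a median of 0.439 in 5 myb30 libraries and of 0.914 in 6 Col libraries, with ranges of 0.248 to 0.813 and 0.282 to 3.41 that overlapped.

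The enzymes that supply terpene precursors moved by less than 1 log2 unit. Of 7 genes of the plastid pathway, 3 rose and 1 fell at 30 min in myb30 local leaves, none was called in myb30 systemic leaves, 4 rose in Col local leaves and 2 rose in Col systemic leaves. The shares called, 4 of 7 in myb30 local and 4 of 7 in Col local leaves, lay near the 44.1% and 53.7% of all genes called there. The largest change was that of HDS, a late enzyme of the pathway, at 0.56 ± 0.11 in myb30 local leaves (limma adjusted p = 5.3e-05) and 0.88 ± 0.11 in Col local leaves (limma adjusted p = 1.1e-08). CLA1, the first enzyme, fell in myb30 local leaves (-0.29) and rose in Col systemic leaves (0.38). The mevalonate pathway feeds farnesene synthesis in the cytosol. Of its 8 genes none rose and 2 fell in myb30 local leaves, and none was called in myb30 systemic leaves. In Col local leaves none rose and 3 fell, and 2 rose in Col systemic leaves. Among all genes tested, 44.1%, 11.6%, 53.7% and 34.7% were called in these 4 arms in either direction. ACAT2, the first enzyme of the mevalonate pathway, was at -0.51 in myb30 local and -0.52 in Col local leaves and passed in both. Medians of both lists lay between -0.10 and 0.18 in the 4 arms, where the median over all genes was -0.0017, -0.0043, 0.00097 and 0.0014 in myb30 local, myb30 systemic, Col local and Col systemic leaves. Of 6 tested prenyl diphosphate synthases and isomerases, GPS1 and IPP2 rose in the local leaves of both genotypes, GPS1 fell in systemic leaves of both, and IPP1 rose in Col systemic leaves. The seventh, GGPS1, was listed at 0 to 2.35 and shares its locus with AT4G36808 on the other strand.

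Of 28 further family genes 9 were at 0 in every library and 5 passed the minimum level. In local leaves at 30 min none of these 5 rose in either genotype, with 1 lower in myb30 and 3 lower in Col. AT4G20230 was among the lower genes in Col, at -0.66 ± 0.27 (limma adjusted p = 0.035). Of all genes tested, 44.1% in myb30 and 53.7% in Col were called there in either direction, and 3 of 5 in Col is near that share. GA2, of gibberellin synthesis, fell in local leaves of myb30 (-0.55) and Col (-0.38) and rose in Col systemic leaves (0.39). All 4 other CYP82 genes on the list stood at 3.60 or less in every library.

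Of 5 other enzymes of leaf volatiles 1 rose at 30 min in myb30 local leaves, 0 in myb30 systemic leaves, 4 in Col local leaves and 4 in Col systemic leaves. Over all genes 22.5%, 5.87% and 27.2% rose in myb30 local, myb30 systemic and Col local leaves, so the counts in myb30 are near the background. For Col systemic leaves the share called in either direction was 34.7%. BSMT1 is a methyltransferase that makes methyl salicylate and methyl benzoate. It averaged 38.2 at 30 min and 6.93 at 0 min in myb30 local leaves (2.76 ± 1.86, not passing). In Col local leaves it averaged 570.3 at 30 min and 3.32 at 0 min (5.56 ± 1.86, limma adjusted p = 0.011). Across the 48 libraries BSMT1 ran from 0 to 1570.6, with a median of 6.65. The highest library belongs to Col local leaves at 30 min, so the mean of 570.3 rests mostly on 1 library. LOX2 changed by 0.98 ± 0.50 in myb30 local leaves and 2.04 ± 0.50 in Col local leaves, and passed in Col. HPL1, which makes green leaf aldehydes, rose in Col local leaves by 1.35 ± 0.42 and in Col systemic leaves by 1.40 ± 0.42. Its changes of 0.86 ± 0.42 in myb30 local and 1.14 ± 0.42 in myb30 systemic leaves did not pass. CHAT, which makes a green leaf ester, rose in myb30 local leaves by 1.64 ± 0.51 and in Col systemic leaves by 2.07 ± 0.51. Its changes of 1.12 ± 0.51 in Col local leaves (limma adjusted p = 0.062) and 0.78 ± 0.51 in myb30 systemic leaves did not pass. A pass in Col without one in myb30 is no test of a difference between them, which was not run for these genes.

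Genes of the jasmonate pathway rose at 30 min in all 4 arms. Of 13 tested genes of jasmonate synthesis, signalling and response, all 13 rose at 30 min in myb30 local leaves and in Col local leaves. In myb30 systemic leaves 9 rose and 1 fell, and in Col systemic leaves 12 rose and 1 fell. Over all genes 22.5%, 5.87% and 27.2% rose in myb30 local, myb30 systemic and Col local leaves. In Col systemic leaves 34.7% were called in either direction. The list was fixed with earlier results of these data known. The fourteenth on the list, MYC2, a factor of jasmonate signalling that leaves are known to use, is listed at 0 in every library. The median changes of the 13 were 4.38, 3.30, 4.52 and 4.39 in these 4 arms. At 8 min 9 rose in myb30 local leaves, 1 in myb30 systemic leaves, 3 in Col local leaves and 4, with 1 lower, in Col systemic leaves. The terpene genes called at 8 min numbered 2 in myb30 local leaves and 0 in both myb30 systemic and Col local leaves. Over all genes 9.48% rose at 8 min in myb30 local leaves. In myb30 systemic, Col local and Col systemic leaves 0.88%, 26% and 22.4% were called in either direction. JAZ7 rose by 6.40 ± 1.41 in myb30 local and 6.06 ± 1.41 in Col local leaves at 30 min, and JAZ1 by 5.55 ± 0.82 and 5.91 ± 0.82. Of the 2 tested oxygenases related to JRG21, AT5G05600 rose at 30 min by 4.96 ± 0.93 in myb30 local, 4.29 ± 0.93 in myb30 systemic and 5.55 ± 0.93 in Col local leaves, and AT2G38240 rose by 5.34 ± 1.61 in myb30 local and 6.85 ± 1.61 in Col local leaves. Its change of 4.10 ± 1.61 in myb30 systemic leaves did not pass.

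**Figure D4:**
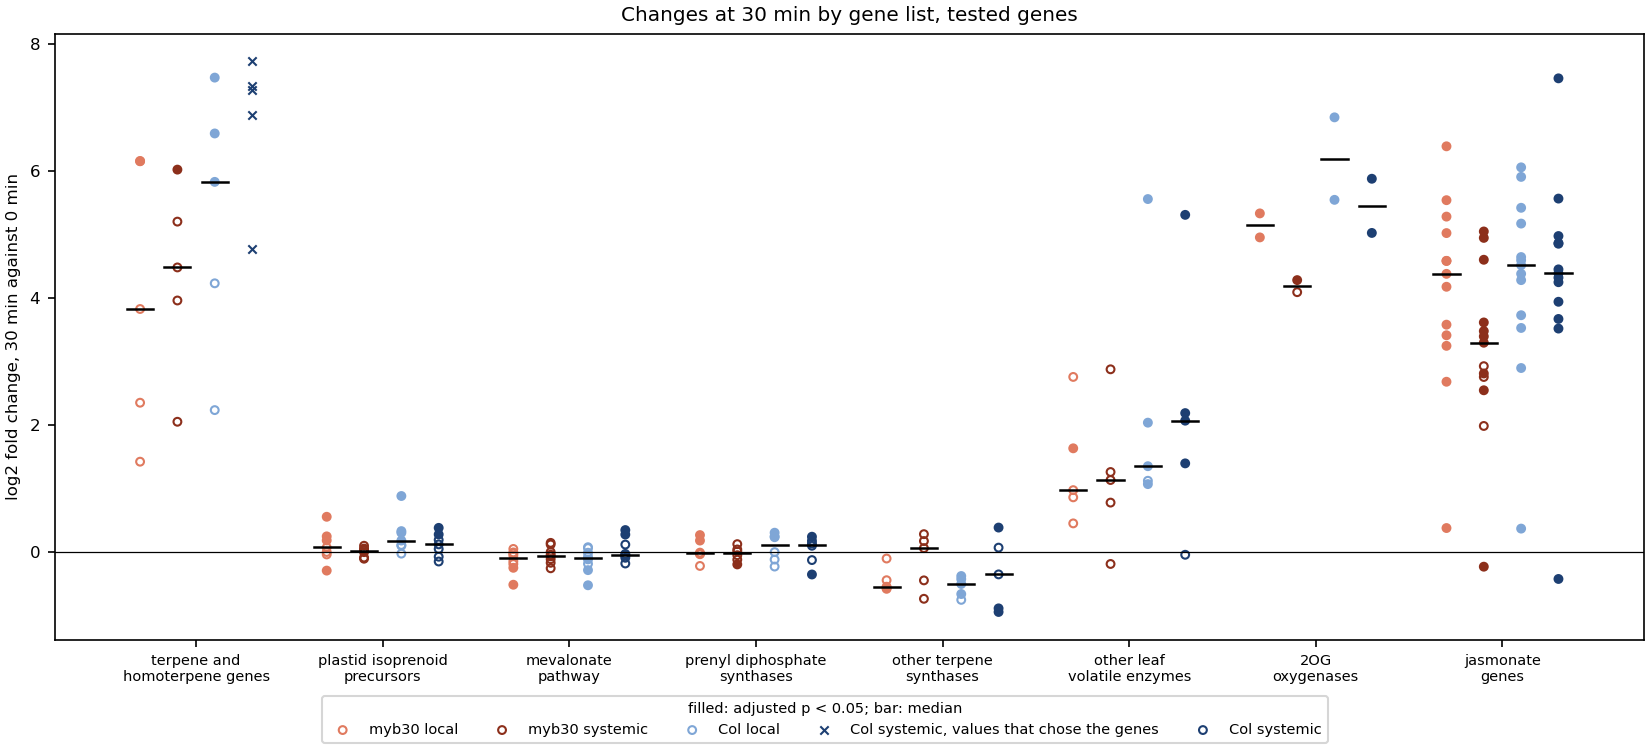
Change at 30 min against 0 min of the tested genes of each list, as log2 fold change, in local and systemic leaves of myb30 and Col. Filled points passed an adjusted p of 0.05 and bars are medians; crosses are the Col systemic values that chose the genes and carry no test, and precursor pathways lie near 0 while terpene, oxygenase and jasmonate genes lie well above it.

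The leaf label held: summed photosynthesis transcripts of 4 genes lay between 3.27e+06 and 4.22e+06 in every library, while 3 flower identity genes summed to 55.2 to 146 and the root gene PYK10 to 21.6 to 634. Guard cell markers fell at 30 min, 3 of 3 in myb30 local, 0 of 3 in myb30 systemic, 3 of 3 in Col local and 2 of 3 in Col systemic leaves. Over all genes 44.1%, 11.6%, 53.7% and 34.7% were called there in either direction. The vascular marker SUC2 fell in myb30 local leaves (-0.38), and APL rose in Col local (0.55) and fell in Col systemic leaves (-0.41). The trichome marker GL2 rose in Col systemic leaves (0.53). The part of these markers in the results was not tested. In RNA of whole leaves fewer cells of a type and less RNA per cell cannot be told apart.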

How the data were processed

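RNA of 48 leaf libraries was analysed from the deposited table, which holds a linear signal per gene, namely reads that the authors scaled by 1 size factor for each library. The submitters' processing notes name DESeq2 1.20.0, STAR 2.4.0.1, FastQC 0.11.7, cutadapt 1.18 and the build TAIR10, while how reads were counted is not given in the sources used here. After multiplication by these factors (0.776 to 1.17), 100% of 1084756 values above 0 were whole within 1e-06, and these reads entered edgeR 4.0.16 and DESeq2 1.42.0 as alternatives. Groups follow the sample titles, since the time field of 6 Col samples says 0 min where their titles say 30 min.

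The main test was limma 3.58.1 (R 4.3.3, trend) on log2(value + 1) with 16 group means fitted to all libraries, genes with a mean of at least 10, Benjamini-Hochberg adjustment within a comparison and a threshold of 0.05. Depth was 70514715 to 89402096 reads per library. Each p-value measures only how these samples vary, and the labels describe each sample as a pool of plants. Other settings were pseudocounts of 0.5 and 8, no filter, quantile and total scaling, the compared groups alone, a library number block, and omission of single libraries. Whether library numbers pair samples was checked in the data. Same-numbered libraries deviated together at r above 0.1 in every pair in 6 of 17 comparisons, and the block changed no call there. Estimates and intervals in the results come from the fit without the block, also for these 6. The fit was tested on simulated data.

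The members and lists were chosen with earlier results of these data known. All 6 members are named; the 3 genes most like each are those with the highest Pearson r over 48 libraries; of lists of up to 8 genes any member may be named, and of longer ones the 4 called genes with the largest change and genes at 0 everywhere. Sequences come from RefSeq on TAIR10.1, with starts and ends of that build. Python 3.11.15, pandas 2.3.3 and matplotlib 3.10.9 were used.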

Additional observations from a re-analysis of the deposited data

How the results depend on the processing

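Counts of called genes out of 5 moved in 8 of the 17 tested comparisons under at least 1 other setting. No change that was called in the main fit turned its direction in any setting run. The direction of changes that were not called was not checked. With the replicate block 1 gene was called in Col local leaves at 8 min, against 0, and in no other comparison did the block move the count beyond 1.5 times. With the compared groups fitted alone 1 gene was called in myb30 local leaves at 8 min, 0 in myb30 systemic leaves at 30 min and 5 in Col local leaves at 30 min, against 2, 1 and 3. With a pseudocount of 8 it was 1 in myb30 local leaves at 8 min. edgeR called 4 in myb30 local and 4 in Col local leaves at 8 min. DESeq2 called 5 in myb30 local leaves at 8 min, 4 in myb30 systemic leaves at 30 min, and 1, 5 and 5 in Col local leaves at 2, 8 and 30 min. Leaving out libraries gave 0 to 5 in myb30 local leaves at 8 min, 0 to 3 at 30 min, 0 to 1 in myb30 systemic leaves at 8 min, 0 to 4 at 30 min, 0 to 1 in Col local leaves at 8 min, 1 to 3 at 30 min, and 0 to 2 for myb30 against Col local leaves at 8 min. The lowest count in Col local leaves at 30 min came without replicate 2 of every group, and both the highest in myb30 systemic leaves and the 2 of myb30 against Col came without replicate 3. The causes were not tested. Across its alternatives CYP82G1 kept adjusted p-values of 4.0e-05 to 0.090 in myb30 local leaves at 30 min, 0.00020 to 0.40 in myb30 systemic leaves and 5.1e-05 to 0.081 in Col local leaves. At 0 min the members held 0 to 31 reads per library, which limits the size of any fold change against that time.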
